A study of Mus musculus with 2 samples.

Results

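The levels of 10 miRNA genes that mark epithelia and epidermis were measured in skeletal muscle. They are the mir-200 family (Mir200a, Mir200b, Mir200c, Mir141 and Mir429), Mir203, Mir205 and the mir-183 cluster (Mir183, Mir96 and Mir182). They were taken by symbol from the GENCODE M21 annotation, and all 10 were found among the 2202 counted genes, which that annotation types as miRNA. Small RNA had been sequenced from the gastrocnemius, a calf muscle that moves the ankle and knee, in female B6CASTF1/J mice aged 4 days. B6CASTF1/J animals are first-generation hybrids of C57BL/6J and CAST/EiJ, and the labels give no treatment. The data form 1 group of 2 libraries, biological replicates 1 and 2, prepared from separately numbered females that share 1 donor record. No condition can be set against another, so the values show how these genes stand in young muscle and how far the libraries lie apart. Levels are given as CPM, a gene's own-strand count per 1000000 such counts over all miRNA genes.

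MicroRNAs are short RNAs that bind transcripts through their seed, bases 2 to 8 of the mature strand, and lower their output. The mir-200 family represses the transcription factors Zeb1 and Zeb2 and so helps to keep cells epithelial. Mir203 limits the stem cell program of the epidermis by repressing the p63 gene Trp63, and Mir205 is abundant in the progenitor cells of stratified epithelia and skin. The mir-183 cluster is best known from sensory organs, where hair cells and photoreceptors express it. None of them is classed among the miRNAs enriched in muscle.

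The mature strands show which genes can act on the same targets. For each gene the arm known as its main product is given 5′ to 3′ from RefSeq (GRCm38.p6), with the seed in capitals. All 10 arms were matched, and they hold 7 different seeds.
miR-200b-3p: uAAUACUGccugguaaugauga
miR-200c-3p: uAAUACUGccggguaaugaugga
miR-429-3p: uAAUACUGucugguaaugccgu
miR-200a-3p: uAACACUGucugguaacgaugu
miR-141-3p: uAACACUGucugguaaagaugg
miR-203-3p: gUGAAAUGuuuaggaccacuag
miR-205-5p: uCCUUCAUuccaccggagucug
miR-183-5p: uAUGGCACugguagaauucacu
miR-96-5p: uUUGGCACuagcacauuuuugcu
miR-182-5p: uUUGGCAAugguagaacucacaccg

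The mir-200 family falls into 2 seed groups that cross its 2 loci. The seed AAUACUG is shared by miR-200b, miR-200c and miR-429, and the seed AACACUG by miR-200a and miR-141. Counted from the 5′ end, miR-200b differs from miR-200a within the seed only by U4C. Within a seed group the strands stay close, with U11G and A22G between miR-200b and miR-200c over their first 22 bases, and C17A and U22G between miR-200a and miR-141. The mir-183 cluster has 3 seeds, because miR-96 and miR-182 differ by C8A in theirs and miR-183 and miR-182 by A2U and C8A. Over their first 22 bases, seed included, miR-183 and miR-182 have 18 identical. In the RefSeq table only 1 further mature miRNA had any of these seeds, miR-1271-5p with that of miR-96, and its gene had 0 counts in both libraries.

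The 10 genes lie at 5 loci in mm10. Mir200b (156055681 to 156055750), Mir200a (156054896 to 156054985) and Mir429 (156053905 to 156053987) follow one another on the minus strand of chromosome 4, all in an intron of Ttll10. The noncoding gene Gm13648 runs over the same stretch, with Mir429 in an exon of it and the other 2 in an intron. Mir200c (124718322 to 124718390) and Mir141 (124717914 to 124717985) lie on the minus strand of chromosome 6 in an intron of the noncoding gene Gm15884, and Mir141 also overlaps part of the unconfirmed gene Gm29008. Mir183 (30169668 to 30169737), Mir96 (30169446 to 30169551) and Mir182 (30165918 to 30165992) lie elsewhere on the same strand of that chromosome, outside any other annotated gene. Mir203 (chromosome 12, plus strand, 112130880 to 112130955) is also intergenic and starts 3321 bases past the end of Aspg. Mir205 (chromosome 1, minus strand, 193507463 to 193507530) sits within an exon of 4631405K08Rik, a long intergenic noncoding RNA.

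Library 2 held 4336759 own-strand gene counts and library 1 held 5569392, and a gene with a count of 0 could still be at 0.692 CPM in library 2 or 0.539 CPM in library 1 (3 counts). Reads that match several places belong to no gene in these files, so a gene with such reads can be higher than its count. Of the 2202 genes, 335 were detected, that is, at 2 CPM or more in both libraries. Of 9 listed skeletal muscle genes, 8 were detected, and the list held 12.1% of the counts in library 2 and 13.1% in library 1, nearly all of it from Mir206. A read stands for 1 small RNA, so levels were compared between genes without division by length. The counts do not separate the arms of a hairpin. Intervals below are exact binomial at 95%. They cover only the error of counting, because amplified reads carry no molecular identifiers and need not be independent.

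The 10 genes together were a small part of the muscle's miRNA. They held 1901 counts in library 2 and 1797 in library 1, which was 0.0438% (0.0419 to 0.0458) of the gene counts in library 2 and 0.0323% (0.0308 to 0.0338) in library 1. The mean share was 0.0381% ± 0.00818 (SD, n = 2). All 10 had counts in both libraries, and 7 were detected. For each read of the 10 genes, the skeletal muscle list had 275 reads in library 2 and 406 in library 1. These counts leave out reads that match several places. How far that lowers the share of the muscle list and these ratios was not tested.

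Mir203 was the highest of the 10 genes by a wide margin. It had 1067 counts in library 2 and 1124 in library 1, or 246 CPM (231 to 261) in library 2 and 202 CPM (190 to 214) in library 1. Its mean of 224 ± 31.3 CPM (SD, n = 2) ranked 149th of the 335 detected genes, in the middle of the range, and it alone gave 56.1% of the reads of the 10 genes in library 2 and 62.5% in library 1. Mir205, the other epidermal gene, was well below it. Mir205 had 187 counts in library 2 and 111 in library 1, or 43.1 CPM (37.2 to 49.8) in library 2 and 19.9 CPM (16.4 to 24.0) in library 1. Its mean was 31.5 ± 16.4 CPM (SD, n = 2), so that its libraries lay further apart, relative to their mean, than those of Mir203.

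**Figure D1:**
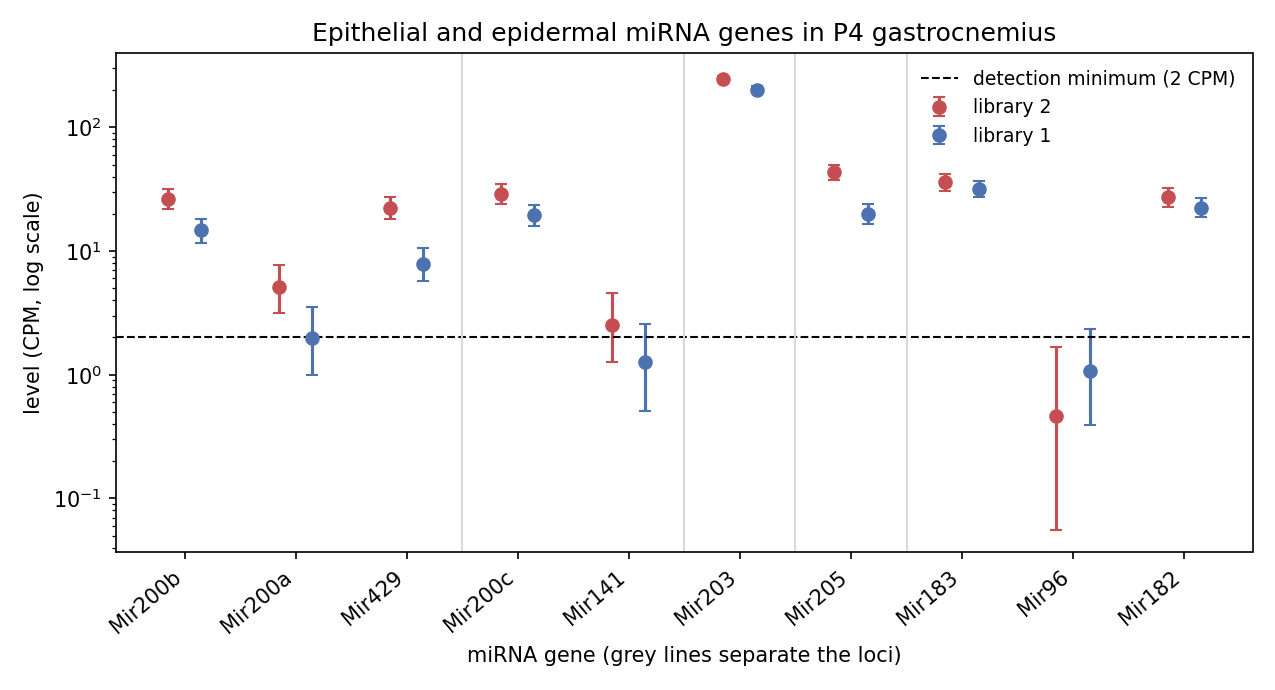
Level in CPM, on a log scale, of each of the 10 genes in library 2 (red) and library 1 (blue), with exact 95% binomial intervals and the detection minimum of 2 CPM as a dashed line. Mir203 stands above 200 CPM in both libraries, 6 genes lie between 7.90 and 43.1 CPM, and Mir200a, Mir141 and Mir96 reach at most 5.07 CPM.

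The mir-200 family summed to 371 counts in library 2 and 253 in library 1, or 65.5 ± 28.4 CPM (SD, n = 2) over its 5 genes. Mir200c was its highest member, with 126 counts (29.1 CPM) in library 2 and 109 counts (19.6 CPM) in library 1. Mir200b followed with 115 counts (26.5 CPM) in library 2 and 82 counts (14.7 CPM) in library 1. These are the first hairpins of the family's 2 loci, and they carry the same seed. Mir429, the third gene with that seed, had 97 counts (22.4 CPM) in library 2 and 44 counts (7.90 CPM) in library 1. The genes with the other seed were scarce. Mir200a had 22 counts (5.07 CPM) in library 2 and 11 counts (1.98 CPM) in library 1, which left it just under the detection minimum in library 1. Mir141 had 11 counts (2.54 CPM) in library 2 and 7 counts (1.26 CPM) in library 1. Summed by seed, the AAUACUG genes were at 60.1 ± 25.3 CPM and the AACACUG genes at 5.42 ± 3.10 CPM (SD, n = 2 each).

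In the mir-183 cluster, 2 genes were detected and the one between them was at the limit of the counts. Mir183 had 156 counts (36.0 CPM) in library 2 and 178 counts (32.0 CPM) in library 1. Mir182 had 118 counts (27.2 CPM) in library 2 and 125 counts (22.4 CPM) in library 1. Mir96 had 2 counts (0.461 CPM) in library 2, which is below what a count of 0 allows there, and 6 counts (1.08 CPM) in library 1. Mir183 averaged 34.0 ± 2.84 CPM and Mir182 24.8 ± 3.37 CPM (SD, n = 2 each), and relative to their means both kept closer between the libraries than the other 5 detected genes. Mir182 was nearly level with Mir203 in this, with log2 ratios of library 2 over library 1 of 0.255 for Mir182 and 0.264 for Mir203.

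By mean level the order was Mir203, Mir183, Mir205, Mir182, Mir200c, Mir200b, Mir429, Mir200a, Mir141 and Mir96. Only the steps from Mir203 to Mir183 and from Mir429 to Mir200a exceeded both the spread between libraries and counting error in each library. Mir203 was above Mir183 by 6.84-fold (5.78 to 8.14) in library 2 and 6.31-fold (5.39 to 7.44) in library 1, and Mir429 was above Mir200a by 4.41-fold (2.75 to 7.36) in library 2 and 4.00-fold (2.03 to 8.59) in library 1. From Mir183 down to Mir429 each neighbour overlapped the next in range. Some of these changed order between the libraries. The ratio of Mir183 to Mir205 was 0.834 (0.670 to 1.04) in library 2 and 1.60 (1.26 to 2.05) in library 1, that of Mir205 to Mir182 was 1.58 (1.25 to 2.01) in library 2 and 0.888 (0.681 to 1.16) in library 1, and that of Mir182 to Mir200c was 0.937 (0.722 to 1.21) in library 2 and 1.15 (0.880 to 1.497) in library 1. Among the 335 detected genes these 6 ranked from 221st to 252nd.

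Genes of 1 locus are known to be cut from a shared transcript, yet their levels differed widely. In both loci of the mir-200 family the AACACUG gene was far below the first hairpin. Mir200a was at 0.191 (0.115 to 0.304) of Mir200b in library 2 and 0.134 (0.0645 to 0.253) in library 1, although only 695 bases separate the hairpins. Mir141 was at 0.0873 (0.0425 to 0.162) of Mir200c in library 2 and 0.0642 (0.0252 to 0.137) in library 1, across 336 bases. Both ratios had overlapping intervals between the libraries. Mir429, the last hairpin on chromosome 4, was closer to Mir200b, at 0.843 (0.637 to 1.11) in library 2 and 0.537 (0.363 to 0.783) in library 1. It lay above Mir200a in both libraries although it is the more distant from Mir200b. The steepest step was in the mir-183 cluster, where Mir96 was at 0.0128 (0.00154 to 0.0471) of Mir183 in library 2 and 0.0337 (0.0122 to 0.0748) in library 1, across 116 bases. Mir182, 3675 bases from Mir183, was at 0.756 (0.590 to 0.967) of it in library 2 and 0.702 (0.554 to 0.888) in library 1.

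**Figure D2:**
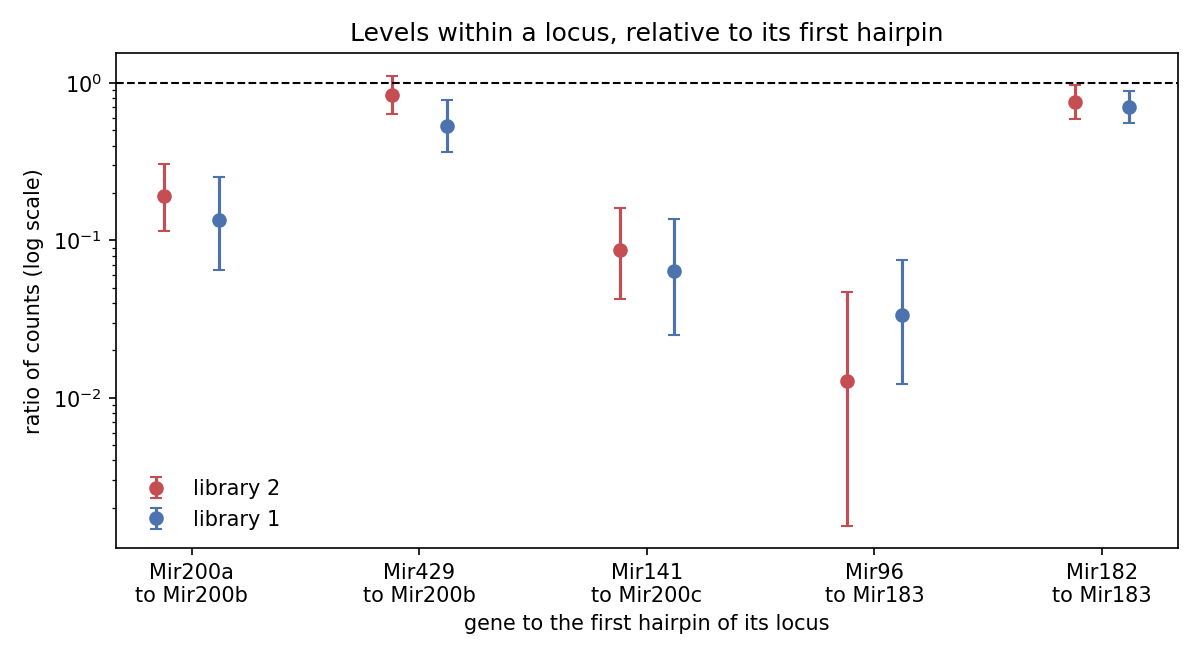
Counts of each gene relative to the first hairpin of its locus, on a log scale, in library 2 (red) and library 1 (blue), with exact 95% intervals and a dashed line at a ratio of 1. Mir429 and Mir182 lie between 0.537 and 0.843, whereas Mir200a, Mir141 and Mir96 lie at 0.191 or below in both libraries.

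Reads that match several places belong to no gene in these files, so shared sequence bears on these ratios. Mir200a and Mir141 share 17 bases of their annotated hairpins, and 16 of these are the first 16 bases of the mature strands printed above. Each of the other 8 genes shares at most 14 bases with any other counted gene, and none of the 10 shares 18 or more. How many reads of Mir200a and Mir141 were short enough to match both was not tested. Matches outside the counted genes were not searched.

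Set side by side, the 5 loci kept the same first place but not the same shares. Mir203 had 56.1% (53.9 to 58.4) of the reads of the 10 genes in library 2 and 62.5% (60.3 to 64.8) in library 1. The mir-183 cluster had 14.5% (13.0 to 16.2) in library 2 and 17.2% (15.5 to 19.0) in library 1, with overlapping intervals. The shares are parts of the same total, so a smaller share need not be a lower level. In CPM this cluster was at 63.6 in library 2 and 55.5 in library 1. The chromosome 4 locus of Mir200b, Mir200a and Mir429 had the larger share in library 2, with 12.3% (10.9 to 13.9) there and 7.62% (6.44 to 8.95) in library 1. Mir205 did likewise, with 9.84% (8.53 to 11.3) in library 2 and 6.18% (5.11 to 7.39) in library 1. The Mir200c-Mir141 locus held 7.21% (6.08 to 8.46) in library 2 and 6.46% (5.36 to 7.69) in library 1, with overlapping intervals.

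**Figure D3:**
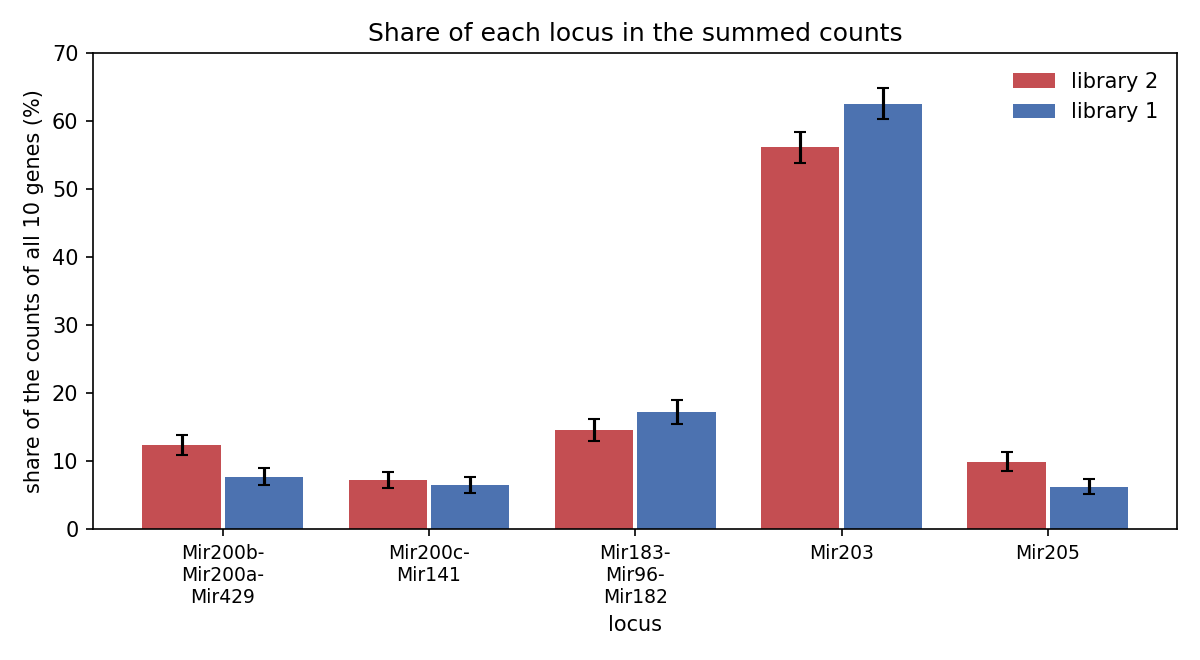
Share of each locus in the summed counts of the 10 genes, in percent, in library 2 (red) and library 1 (blue), with exact 95% binomial intervals. Mir203 holds 56.1% in library 2 and 62.5% in library 1, and the intervals of Mir203, the chromosome 4 mir-200 locus and Mir205 do not overlap between the libraries.

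Between the libraries, 5 of the 7 detected genes were higher in library 2 beyond counting error, by an exact two-sided binomial test of the counts with scaling factors from edgeR's trimmed mean of M-values (TMM) and Benjamini-Hochberg adjustment over the 335 detected genes. These were Mir429, Mir205, Mir200b, Mir200c and Mir203. Mir429 and Mir200b lie at the same locus, so their calls are not independent. Of all 335 genes, 28.7% were called higher in library 2, 26.9% lower and 55.5% were called in either direction, so that a call by itself is common in these data. The test compares these libraries and no conditions. With 1 numbered female per library, a difference between animals cannot be told apart from one in dissection or library preparation.

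Among the tested genes of the 10, Mir429, Mir205 and Mir200b showed the widest gaps. The log2 ratio of library 2 over library 1 was 1.48 for Mir429 (95% counting interval 0.95 to 2.03, adjusted p = 1.44e-08 by the exact binomial test). Mir205 was at 1.09 (0.74 to 1.44, adjusted p = 4.75e-10 by the same exact test). These 2 genes were more than 2-fold higher in library 2, as were 5.97% of all detected genes. Mir200b was at 0.83 (0.41 to 1.25, adjusted p = 0.000188, exact binomial test) and Mir200c at 0.55 (0.17 to 0.93, adjusted p = 0.00806, exact binomial test). The interval of Mir200c overlapped those of Mir203, Mir183 and Mir182. Mir203 had a narrow interval at a small difference, 0.26 (0.14 to 0.39, adjusted p = 5.48e-05, exact binomial test), and 41.5% of the detected genes differed more than it did.

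The mir-183 cluster was not called. Mir183 had a log2 ratio of 0.15 (-0.17 to 0.47, adjusted p = 0.467, exact binomial test) and Mir182 of 0.26 (-0.12 to 0.63, adjusted p = 0.257, exact binomial test). Those intervals leave room for a difference of the size seen in Mir203. The 3 genes under the detection minimum were not tested. Their log2 ratios were 1.34 (0.23 to 2.53) for Mir200a, 0.99 (-0.51 to 2.60) for Mir141 and -1.25 (-4.59 to 1.24) for Mir96.

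The median log2 ratio was 0.55 over the 7 detected genes and 0.03 over all 335. Differences widened at low levels, so the 6 detected genes other than Mir203 were also set beside the 56 other genes with a mean of 10 to 50 CPM, a range chosen after the values were seen. Of the 6 genes, 4 were called higher in library 2 with a median log2 ratio of 0.69. The 6 are not independent, because Mir200b and Mir429 share a locus, as do Mir183 and Mir182. Of the 56 others, 18 (32.1%) were called higher, with a median of 0.15.

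**Figure D4:**
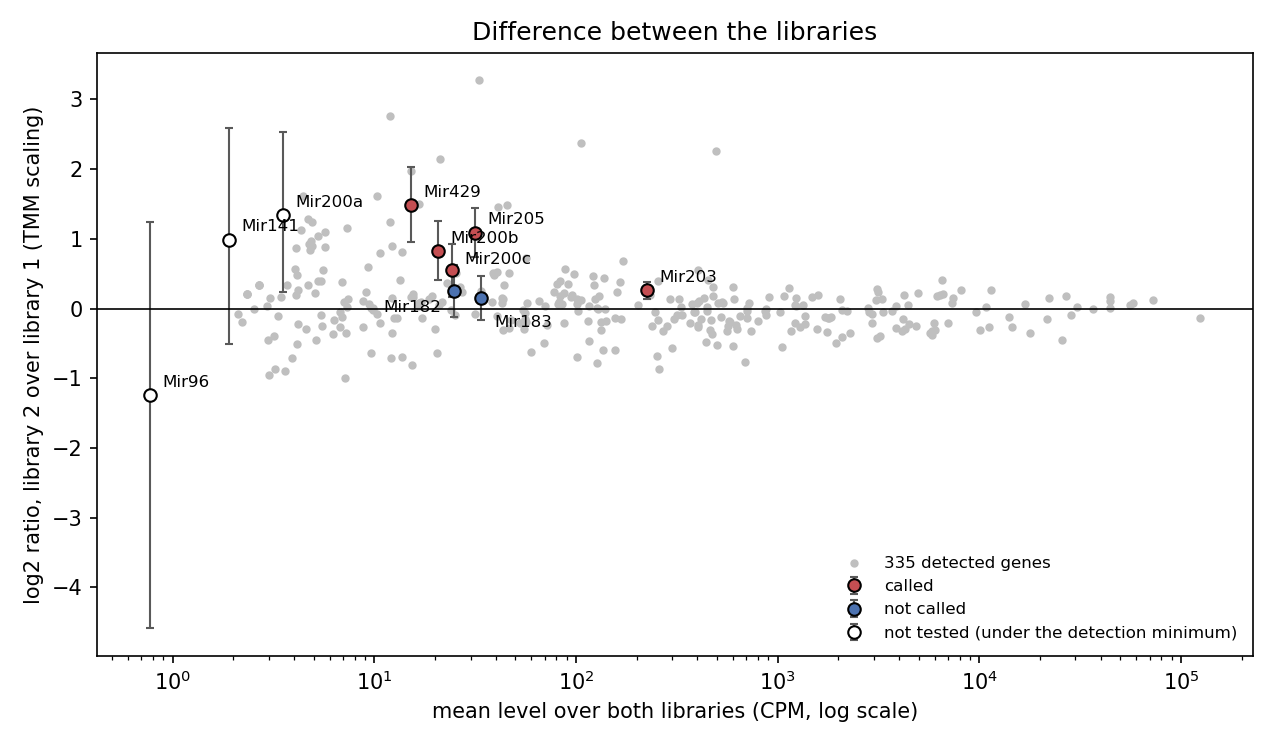
Log2 ratio of library 2 over library 1 (TMM scaling) against mean level in CPM on a log scale, for the 335 detected genes (grey) and the 10 genes (large points with 95% counting intervals; red called, blue not called, white not tested). Mir429 at 1.48 and Mir205 at 1.09 lie highest among the called genes, Mir183 at 0.15 and Mir182 at 0.26 are not called, and the grey points spread more widely at low levels.

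Ratios taken within a library need no scaling factor. Of 13 such pairs of loci or families, 6 had intervals that did not overlap between the libraries. No such count was made over pairs of other genes, so whether 6 of 13 is unusual was not tested. Of all detected genes, 55.5% were called different between the libraries. That share comes from the scaled test of single genes, which is another measure than the overlap of intervals. The pairs are not independent, because each locus enters several pairs and the mir-200 family sum reuses the counts of its loci. Reads of the mir-183 cluster per read of the mir-200 family came to 0.744 (0.634 to 0.872) in library 2 and 1.22 (1.03 to 1.45) in library 1. Reads of Mir203 per read of Mir205 came to 5.71 (4.88 to 6.70) in library 2 and 10.1 (8.33 to 12.4) in library 1. Both of these are among the 6. Mir205 per mir-200 family read, in contrast, was 0.504 (0.421 to 0.603) in library 2 and 0.439 (0.348 to 0.551) in library 1, and the mir-183 cluster per Mir203 read was 0.259 (0.226 to 0.296) in library 2 and 0.275 (0.242 to 0.312) in library 1. The intervals of these pairs overlapped. So did those of all 4 pairs with the Mir200c-Mir141 locus, which per read of Mir203 came to 0.128 (0.107 to 0.154) in library 2 and 0.103 (0.0845 to 0.125) in library 1, and per read of Mir205 to 0.733 (0.583 to 0.918) in library 2 and 1.05 (0.799 to 1.37) in library 1. The chromosome 4 locus came to 0.848 (0.709 to 1.01) reads per mir-183 cluster read in library 2 and 0.443 (0.360 to 0.544) in library 1. Per Mir203 read it came to 0.219 (0.190 to 0.253) in library 2 and 0.122 (0.101 to 0.146) in library 1. Per Mir205 read it was alike, at 1.25 (1.03 to 1.52) in library 2 and 1.23 (0.954 to 1.60) in library 1. The chromosome 4 locus and Mir205 thus shifted between the libraries against the mir-183 cluster and Mir203.

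A further 13 genes associated with epithelia were listed, of which 9 were detected. Their sum was 388 CPM in library 2 and 330 CPM in library 1. That of the 10 genes was 438 CPM in library 2 and 323 CPM in library 1. Of the 9, 2 were called higher in library 2, 1 lower and 6 were not called, with a median log2 ratio of 0.14. Mir449a, a gene of multiciliated epithelial cells, was higher, with 291 counts in library 2 and 132 in library 1 and a log2 ratio of 1.48 (1.18 to 1.79), while its cluster neighbours Mir449b and Mir449c had 0 counts in both. Mir135b was higher as well, with 30 counts in library 2 and 16 in library 1 and a log2 ratio of 1.25 (0.32 to 2.22). Mir192, a gene of gut, liver and kidney epithelium, was lower, with 40 counts in library 2 and 83 in library 1 and a log2 ratio of -0.71 (-1.30 to -0.15). Mir31, a gene also expressed in keratinocytes, was not called at -0.20 (-0.44 to 0.05), with a mean of 56.4 ± 4.78 CPM (SD, n = 2). The p53-responsive gene Mir34a had the highest level of the list at 124 ± 9.80 CPM, and it was not called, nor were Mir34c at 81.8 ± 3.40 CPM and Mir34b at 2.94 ± 0.0882 CPM. Mir375 at 15.2 ± 1.38 CPM and Mir194-2 at 15.6 ± 1.46 CPM were not called either. Mir215 had 5 counts in each library, and Mir194-1 had 0 in both.

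Markers of other cell types moved both ways beside these genes. Summed levels were higher in library 2 for the liver gene Mir122 (824 CPM in library 2 and 169 CPM in library 1), for 10 neural and glial genes led by Mir338 (520 CPM and 383 CPM in the same order, with 3 detected and Mir124a-2, Mir124a-3 and Mir9-2 at 0 in both), for the erythroid pair led by Mir451a (119 CPM and 96.8 CPM, both detected) and for the smooth muscle pair led by Mir143 (29100 CPM and 25509 CPM, both detected). Within these lists the genes did not all go the same way. Of the 3 detected neural and glial genes, 2 were called higher in library 2 and 1 was not called. Mir338 was at 328 CPM in library 2 and 346 CPM in library 1 and was not called, whereas Mir137, named after its values were seen, was at 178 CPM in library 2 and 33.6 CPM in library 1. Mir451a was called higher in library 2 and Mir144 was not called, and Mir143 was called higher and Mir145a lower. Summed levels were lower in library 2 for 4 leukocyte genes led by Mir223 (408 CPM in library 2 and 657 CPM in library 1, all 4 detected). Of these, 3 were called lower and 1 was not called. Sums were also lower for 5 connective tissue and cartilage genes led by Mir214 (4243 CPM and 5418 CPM in the same order, 4 detected). Of the 4, 2 were called lower and 2 were not called. The endothelial pair led by Mir126a was lower too (21932 CPM and 29519 CPM, 1 detected). So was the sum of 9 skeletal muscle genes led by Mir206 (120702 CPM and 130998 CPM, 8 detected), which was nearly all Mir206. Of the 8 detected muscle genes, 3 were called lower, 1 higher and 4 were not called. For 5 gut and endocrine genes led by Mir194-2, all of them also among the 13 epithelial genes above, the sums were 43.1 CPM in library 2 and 44.5 CPM in library 1, with 3 detected and Mir194-1 at 0 in both. Because reads that match several places are left out, a count of 0 does not show that a gene was silent. The part of these lists in the differences above was not tested. In bulk tissue, fewer cells of a type and less RNA per cell cannot be told apart.

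**Figure D5:**
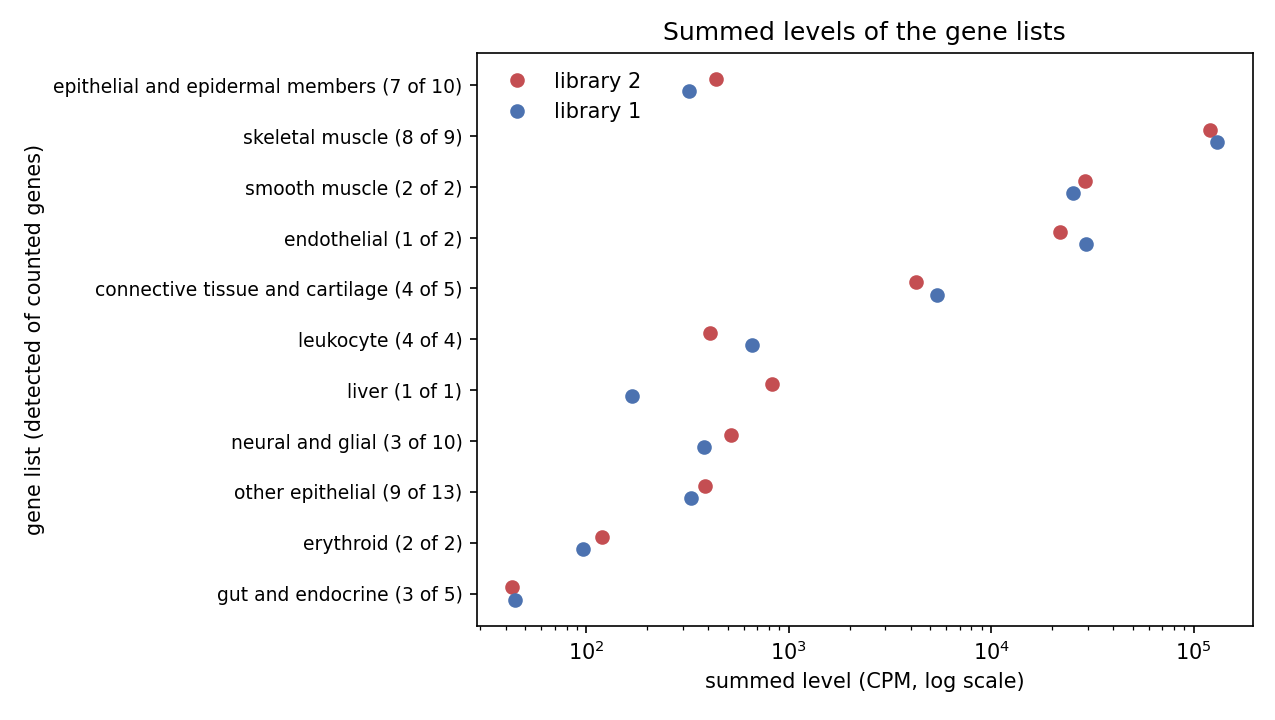
Summed level in CPM, on a log scale, of the 10 genes (top row) and of the other lists in library 2 (red) and library 1 (blue), with the number of detected among counted genes in each list. The 10 genes lie at 438 CPM in library 2 and 323 CPM in library 1, against 120702 CPM and 130998 CPM for skeletal muscle genes, and the lists differ in which library is higher.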

How the data were processed

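The authors deposited 1 table of raw counts per library. Per the labels the assembly was mm10, and a text file beside each table names annotation M21. What aligned and counted the reads is not given in the sources used here. Of the 3 deposited count columns, the sums show reads without regard to strand, on the gene's own strand and on the opposite strand. The own-strand column was used. Its 4 lines that name no gene stayed out of totals and tests. In library 2 they held 37.6% of reads as multimapping, 9.26% as unmapped and 2.09% with no feature, and in library 1 36.9%, 8.03% and 1.70%. Reads of the CAST/EiJ allele that differ from mm10 could be lost, which was not tested.

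CPM is a gene's count per 1000000 gene counts. Detection required 2 CPM in both libraries. The counting test used TMM factors from edgeR 4.0.16 (R 4.3.3), with a threshold of 0.05 on the adjusted p. It was tried on counts simulated with counting error only, which cannot show how it behaves when replicates vary. DESeq2 1.42.0 size factors were an alternative. Other steps used Python 3.11.15, numpy 2.4.6, pandas 2.3.3, scipy 1.17.1 and matplotlib 3.10.9. The members and lists were chosen with earlier results of these data known. By the naming rule, all 10 genes, all genes of the second epithelial list, the highest gene of each marker list and the detected genes next to each member in level are named. Genes at 0, Mir137 and Mir145a are named outside it, after their values were seen. No gene is named for likeness of pattern, since each gene has 1 ratio.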

Additional observations from a re-analysis of the deposited data

Results flagged for a closer look

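Mir203 had 9 counts on the strand opposite to its own in library 1, above the 3 counts that a count of 0 allows. In library 2 it had 2. Those reads lie in a column that no comparison uses, and they were 0.187% (95% exact binomial interval 0.0227 to 0.674) of the reads at the locus in library 2 and 0.794% (0.364 to 1.503) in library 1. Over the 2135 counted genes that overlap no other counted gene, opposite-strand reads were 0.00123% of reads in library 2 and 0.000986% in library 1. Only 2 of those genes exceeded 3 such counts in each library, and none of the 10 genes other than Mir203 did.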

How the results depend on the processing

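With multimapping reads in the denominator, the share of the 10 genes was 0.0222% against 0.0381% without them, by construction. The number of detected genes was 6 at 10 CPM, 10 at 1 count in either library and 8 with strand ignored. Each library alone, an alternative added after seeing the data, gave 9 in library 2 and 7 in library 1. With strand ignored Mir200a kept the same counts. It passed the minimum because the gene counts of library 1 then summed to 4868965 instead of 5569392. The number called higher in library 2 was 5 of 7 tested with DESeq2 size factors (24.2% of all genes tested were called higher) and with library totals (31%), and 5 of 10 over all genes with a count (10.8%). It was 4 of 6 at 10 CPM (34.3%), where Mir429 was left out, and 6 of 8 with strand ignored (24.7%). The adjusted p of Mir200c reached 0.0479 and that of Mir203 0.00804 over these settings. Mir200a had an adjusted p from 0.0273 to 0.0797 where it was tested. No other call or direction changed. The difference in log2(CPM + pseudocount) kept its sign in all 10 genes at pseudocounts of 0.1, 0.5 and 5. Of the 10 genes, 2 shared 16 bases or more with another counted gene and 0 shared 18 or 20. No paired analysis was possible because there is 1 group. Leaving out a library gives the other's values, with no test. Depth limits Mir96, Mir141 and Mir200a, whose intervals are wide.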

Other observations

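The detected genes next to each of the 10 in mean level show where they stand in this muscle. Mir203 at 224 CPM lay between Mir107 at 233 ± 24.8 CPM and Mir210 at 203 ± 6.87 CPM (SD, n = 2 each). Mir183 lay between Mir1843b at 38.3 ± 2.18 CPM and Mir32 at 33.9 ± 4.54 CPM, and Mir205 between Mir92b at 33.0 ± 38.1 CPM and Mir877 at 31.4 ± 0.751 CPM. Mir182 and Mir200c lay between the erythroid gene Mir144 at 25.1 ± 0.872 CPM and Mir701 at 24.0 ± 0.0559 CPM. Mir200b lay between Mir6944 at 20.96 ± 0.690 CPM and Mir181a-2 at 20.5 ± 6.11 CPM, and Mir429 between Mir375 at 15.2 ± 1.38 CPM and Mir190b at 13.7 ± 4.43 CPM. Closeness in level is the only ground on which these genes are named.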
